A study of Mus musculus with 18 samples.

Results

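The genes described here are Aldh1a3, Hes1, Sox9 and Vim, 4 genes used as markers of beta-cell dedifferentiation, taken by symbol from the 10509 genes listed for these islets. All 4 were found, and none was removed by the filter on low values. Pancreatic islets came from 10 knockout mice, in which NRK1 (the kinase encoded by Nmrk1, which phosphorylates nicotinamide riboside on the way to NAD) was deleted with an Ins1Cre driver, and from 8 WT mice. Every mouse had been on high-fat diet for 12 weeks, and each gave 1 library of 3' end reads. Ins1Cre acts in cells that express Ins1, so the deletion is aimed at beta cells, while whole islets were sequenced. The name Ins1Cre stands in the sample titles of both genotypes, and no label used here says whether WT mice carried the Cre allele or gives the sex or age of the mice. Below, knockout libraries have the names KO 1 to KO 10, and WT libraries WT 1 to WT 8.

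Dedifferentiation is the loss of mature beta-cell traits with a return of genes that belong to progenitors or to other cells. Aldh1a3 encodes an aldehyde dehydrogenase that makes retinoic acid and marks failing beta cells in diabetic mice. Hes1 encodes a repressor that Notch signalling switches on and that holds back Neurog3 in pancreatic progenitors. Sox9 encodes a transcription factor of pancreatic progenitors that stays on in adult duct cells. Vim encodes vimentin, the intermediate filament protein of fibroblasts and other mesenchymal cells, which cultured beta cells also acquire. In whole islets each of these RNAs can therefore come from beta cells or from ductal, stromal, vascular or immune cells, and a change in cell number cannot be told apart from a change in RNA per cell.

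The libraries held 2831137 to 4303680 reads over the listed genes, and Ins2, the main insulin gene of the mouse, took 33.4% to 56.1% of them. KO 2, KO 3 and WT 7 stood apart with 320, 227 and 346 genes at 0 reads, against 33 to 150 in the other libraries, and results that rest on them are given with and without them. Nmrk1 did not differ detectably (log2 fold change -0.03, 95% interval -0.75 to 0.70). No source used here names the deleted stretch, and 3' reads from outside it would remain, so this gene gives no check of the genotype labels. Values are log2 CPM, the log2 of CPM (reads scaled by the authors for each library), with a floor of 0.562 CPM. Fold changes on this scale understate changes of genes with few reads. The scaling did not follow the reads over the listed genes alone. A read stood for 0.3905 CPM in KO 3, with 3292303 reads, and for 0.2655 CPM in KO 6, with 3295299. CPM here is therefore not a share of those reads. Each title carries its own animal number, and p-values measure the spread between these libraries.

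Aldh1a3 (Entrez 56847, chromosome 7, 66390892 to 66427477, GRCm38) varied more between mice than nearly any gene of its level. Among the knockout libraries its log2 CPM was 5.23 in KO 4, 5.10 in KO 9, 4.80 in KO 1, 3.93 in KO 2, 3.83 in KO 3, 3.82 in KO 6, 3.43 in KO 10, 2.92 in KO 8, 2.30 in KO 5 and 0.75 in KO 7. Among WT libraries it was 5.03 in WT 7, 4.07 in WT 6, 3.47 in WT 4, 2.96 in WT 1, 2.55 in WT 3, 1.56 in WT 5, 1.09 in WT 2 and 0.14 in WT 8. Both genotypes thus held libraries with much and libraries with almost no Aldh1a3 RNA, and only 2 of 10 knockout libraries lay above the highest WT library. On the linear scale KO 4 had 36.9 CPM from 140 reads (exact Poisson 95% interval 31.1 to 43.6) and WT 8 had 0.543 CPM from 2 reads (0.066 to 1.96). The ratio between the highest and the lowest library was 68.0, and the variance between libraries was 35.9 times what counting alone would give. Intervals of this kind cover counting error only, since PCR copies are not independent molecules. The SD of Aldh1a3 within genotype was 1.48 on the log2 scale, larger than in 99.7% of the 1877 genes whose mean lay within 0.5 of its own, where the median SD was 0.60.

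Hes1 (Entrez 15205, chromosome 16, 30065357 to 30067796) varied within genotype about as much as genes of its level. In the knockout its log2 CPM was 4.36 in KO 2, 4.04 in KO 7, 3.97 in KO 5, 3.88 in KO 1, 3.62 in KO 10, 3.57 in KO 4, 3.41 in KO 9, 3.14 in KO 8, 3.0 in KO 6 and 2.495 in KO 3. In WT it was 3.54 in WT 4, 3.50 in WT 5, 3.25 in WT 1, 3.24 in WT 6, 2.94 in WT 3, 2.65 in WT 8, 2.54 in WT 2 and 2.09 in WT 7. The groups overlapped, with 6 of 10 knockout libraries above the highest WT library and 9 of 10 above the WT mean. The library with the most Hes1 and those with the least in each genotype, KO 2, KO 3 and WT 7, were the 3 libraries that stood apart by genes at 0 reads. From 9 to 62 reads per library, the SD within genotype was 0.54, larger than in 39.4% of the 1933 genes of like level.

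Sox9 (Entrez 20682, chromosome 11, 112782210 to 112787757) rested on the fewest reads, 0 to 33 per library. Its log2 CPM in the knockout was 3.22 in KO 6, 3.22 in KO 1, 3.07 in KO 7, 2.64 in KO 2, 2.45 in KO 8, 1.64 in KO 10, 1.58 in KO 5, 1.31 in KO 9, 0.43 in KO 3 and -0.83, the floor, in KO 4. In WT it was 2.05 in WT 4, 1.83 in WT 8, 1.78 in WT 2, 1.60 in WT 7, 1.56 in WT 5, 1.39 in WT 6, 0.87 in WT 3 and 0.82 in WT 1. The knockout libraries lay on both sides of the WT range, 5 above its highest and 2 below its lowest library. KO 4, which had the most Aldh1a3 RNA, had 0 Sox9 reads, which allows up to 0.792 CPM (3 reads). Over 10 knockout libraries the SD was 1.33, and over 8 WT libraries 0.44, a ratio of 2.99 that 1.68% of all genes reached. Without KO 4 the ratio was 2.22, and without KO 3 and KO 4 it was 1.77. A ratio at least as high as that of Aldh1a3 (0.85), Hes1 (1.10) or Vim (1.87) was found in 76.1%, 53.2% and 12.9% of genes. The difference in spread was not tested.

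Vim (Entrez 22352, chromosome 2, 13574311 to 13582826) had 60 to 195 reads per library. Its log2 CPM in the knockout was 6.21 in KO 2, 5.40 in KO 7, 5.28 in KO 3, 5.09 in KO 9, 5.03 in KO 6, 4.49 in KO 1, 4.45 in KO 8, 4.21 in KO 4, 4.17 in KO 5 and 3.99 in KO 10. In WT it was 5.17 in WT 7, 5.10 in WT 1, 4.71 in WT 6, 4.71 in WT 3, 4.37 in WT 8, 4.34 in WT 2, 4.29 in WT 5 and 4.21 in WT 4. The knockout again lay on both sides, with 3 libraries above and 3 below the whole WT range. KO 2 and WT 7, which had the most Vim in their genotypes, were also among the 3 libraries that stood apart. KO 2 had 73.6 CPM (exact Poisson 95% interval 63.6 to 84.7) and KO 10 had 15.3 CPM (11.7 to 19.7), so the extremes differed by more than counting error.

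**Figure D1:**
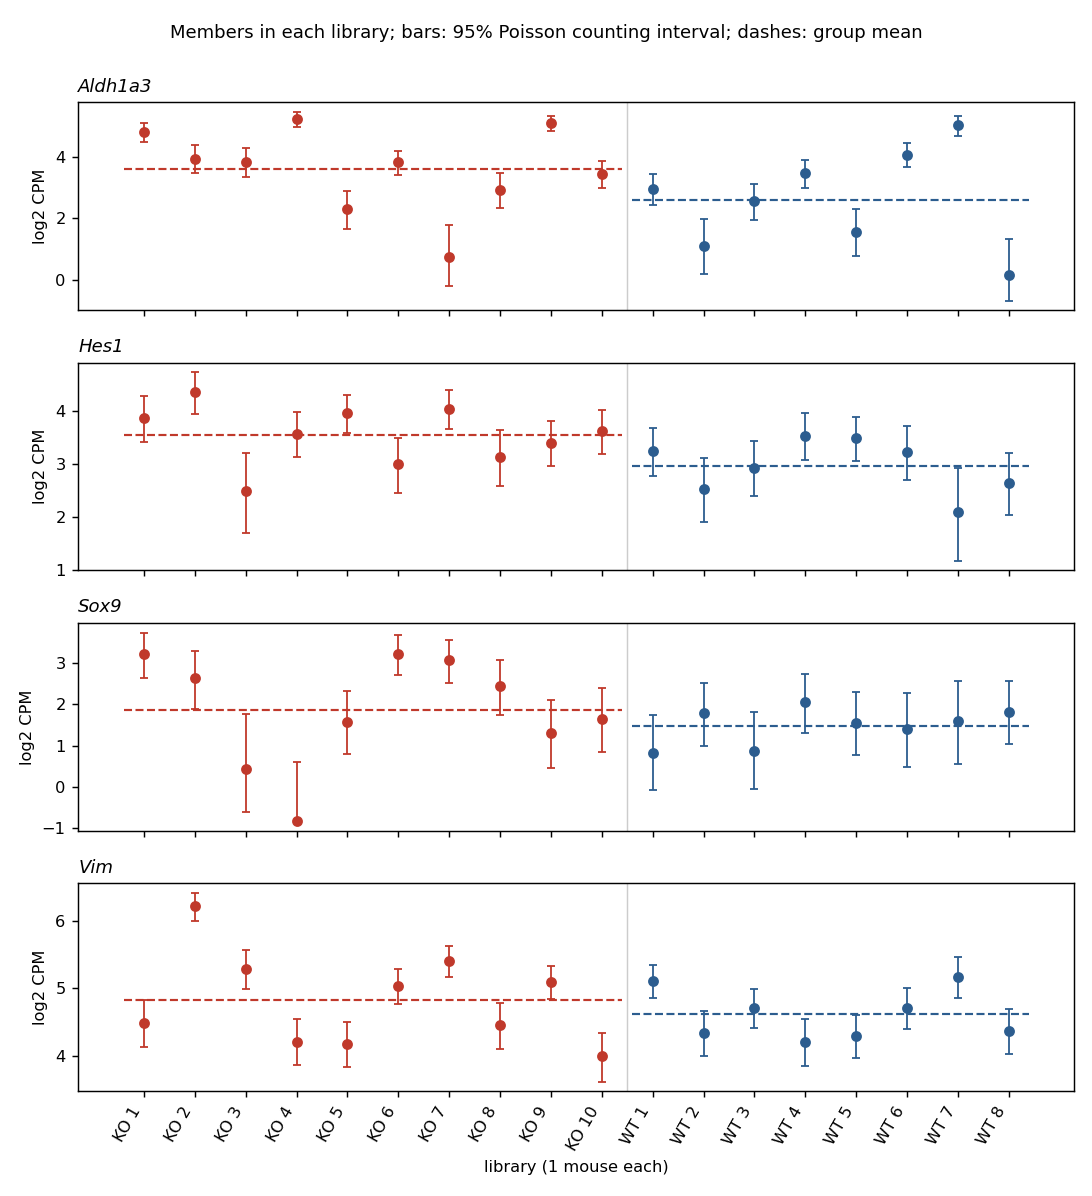
Log2 CPM of Aldh1a3, Hes1, Sox9 and Vim in each of 18 islet libraries, with KO in red and WT in blue, 95% Poisson counting intervals as bars and group means as dashed lines. Aldh1a3 runs from 0.14 in WT 8 to 5.23 in KO 4 and covers much the same range in both genotypes, while Hes1 sits mostly higher in KO.

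**Figure D2:**
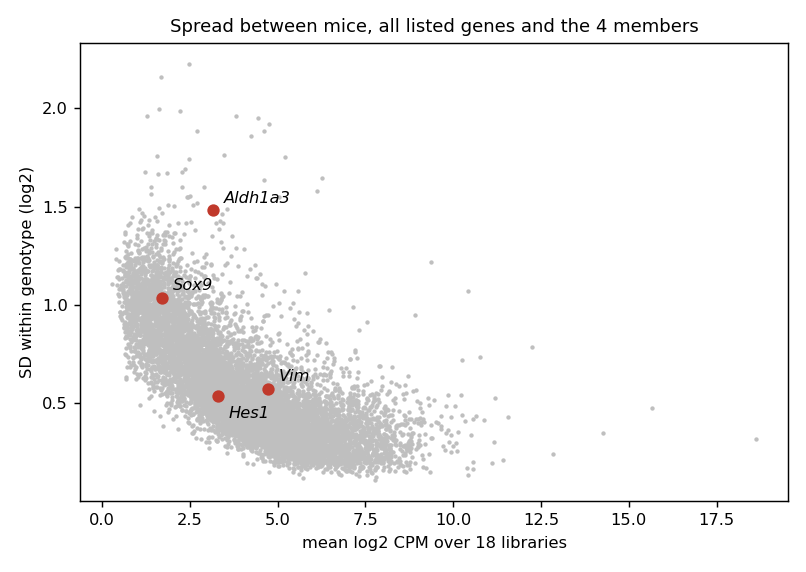
SD within genotype (log2) against mean log2 CPM for all 10509 genes in grey, with the 4 members in red. Aldh1a3, at an SD of 1.48, lies above nearly all genes of its level, and Hes1, at 0.54, lies within them.

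Aldh1a3, Hes1, Sox9 and Vim all missed the threshold when knockout was tested against WT. Over all 10509 genes limma with Benjamini-Hochberg adjustment at 0.05 made 0 calls (0.0%). An unadjusted limma p under 0.05 was reached by 567 genes (5.4%), of which 334 were higher in the knockout (3.18% of all genes). All 4 means were higher in the knockout, a direction shared by 49.6% of all genes, with 50.4% lower. No member separated the genotypes without overlap, which 0.00952% of genes did. The median log2 fold change over all genes was -0.0025. With 4 members chosen in view of earlier results, the shared direction supports nothing by itself.

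The mean log2 CPM of Hes1 was 3.55 ± 0.56 (SD, n = 10) for knockout and 2.97 ± 0.51 (SD, n = 8) for WT libraries. The log2 fold change was 0.58 (SE 0.26, 95% interval 0.04 to 1.12), a fold of 1.50, with a limma adjusted p of 0.925. The two-sided exact permutation test over 43758 regroupings of the mice gave an unadjusted p = 0.0378, a level that 5.54% of all genes reached in either direction and 3.04% with a higher knockout mean. A log2 fold change at least as high was found in 4.35% of genes. Animal numbers in the titles form runs of neighbours, and over the 12 libraries of the 3 runs with both genotypes the difference was 0.36, without the run as a term (exact permutation p = 0.311) and with it (exact permutation within runs, p = 0.431). In the 3 runs it was 0.54, 0.53 and -0.10, the last with 1 WT library. With KO 2, KO 3 and WT 7 left out it was 0.49 (exact permutation p = 0.0336, limma adjusted p = 0.781). The unadjusted exact p lay above 0.05 in 9 of 18 fits that left out 1 library, namely those without knockout library 1, 2, 5, 7 or 10 or without WT library 2, 3, 7 or 8, and was highest, 0.0830, without WT 7, with a difference of 0.46.

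Aldh1a3 had the largest difference of the 4 and also the largest spread. Its log2 CPM averaged 3.61 ± 1.37 (SD, n = 10) for knockout and 2.61 ± 1.62 (SD, n = 8) for WT libraries, which is 16.3 against 9.48 CPM in mean. The log2 fold change was 1.00 (SE 0.56, 95% interval -0.15 to 2.15) with a limma adjusted p of 0.945, and the exact permutation test gave p = 0.173. A log2 fold change this high was found in 0.628% of genes, but the difference was smaller than the SD in either genotype. It was 0.65 without WT 8 and 1.35 without WT 7. With KO 2, KO 3 and WT 7 left out it was 1.28 (limma unadjusted p = 0.0319, adjusted p = 0.732, exact permutation p = 0.117). Within the 3 runs of animal numbers it was 1.85, 0.76 and 0.94.

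Sox9 and Vim differed by less than their spread. Sox9 was at 1.87 ± 1.33 (SD, n = 10) against 1.49 ± 0.44 (SD, n = 8), a log2 fold change of 0.38 (95% interval -0.55 to 1.32, limma adjusted p = 0.972) that 10.0% of genes reached. Its exact permutation p was 0.454. The value was 0.68 without KO 4 and 0.23 without KO 1 or without KO 6, 0.25 without KO 7, and 0.06 over the 12 libraries with the run as a term, where the 3 runs gave 0.23, -1.09 and 1.35. Vim was at 4.83 ± 0.69 (SD, n = 10) against 4.61 ± 0.37 (SD, n = 8), a log2 fold change of 0.22 (95% interval -0.28 to 0.72, limma adjusted p = 0.972) that 20.7% of genes reached. Its exact permutation p was 0.441. The difference of Vim was 0.07 without KO 2, the same without KO 2, KO 3 and WT 7, and was 0.46 over the 12 libraries with the run as a term.

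**Figure D3:**
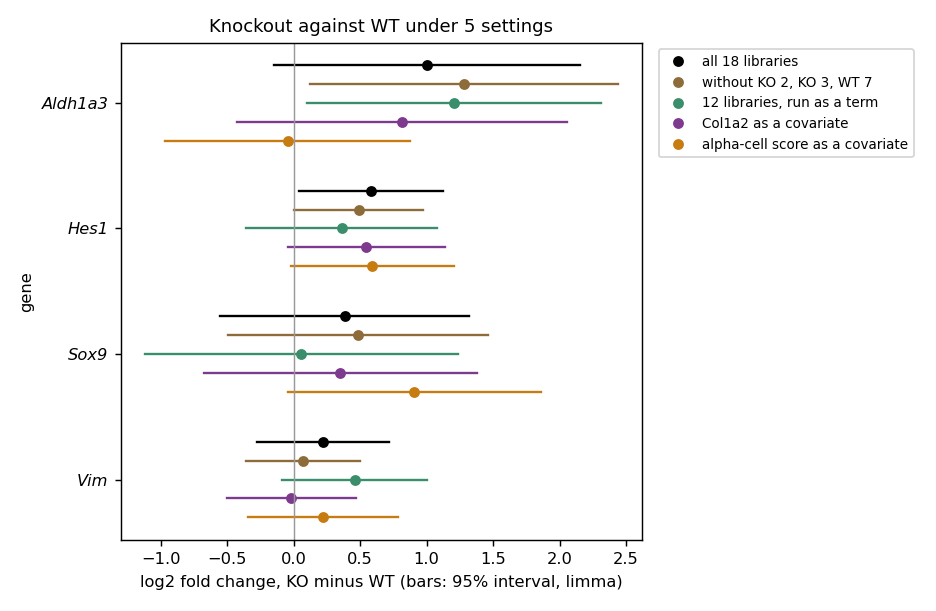
Log2 fold change (KO minus WT) with its 95% limma interval for each member under 5 settings. Most intervals cross 0. Aldh1a3 moves from 1.00 to -0.05 with the alpha-cell score as a covariate, and Vim from 0.22 to -0.02 with Col1a2 as a covariate.

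The libraries with much Aldh1a3 were those with little RNA of alpha, delta and PP cells. This relation was noticed in these data, among 56 combinations of a member and a gene list, and was then added to the planned ones. With glucagon (Gcg, of alpha cells) Aldh1a3 had Pearson r = -0.78 and Spearman rho = -0.81 across 18 libraries (permutation p = 0.00019 and 0.00013). With somatostatin (Sst, of delta cells) r was -0.78 and rho -0.83 (permutation p = 0.00011 and 6e-05). With peptide YY (Pyy) r was -0.80 and rho -0.81 (permutation p = 8e-05 and 0.0001), and with pancreatic polypeptide (Ppy) r was -0.63 and rho -0.74 (permutation p = 0.00546 and 0.00075). Adjusted over 34 relations, of which 12 were added, the p-values of r were 0.00129, 0.0011, 0.0011 and 0.0309, and those of rho were 0.00088, 0.00068, 0.00085 and 0.00425. This adjustment does not cover the 56 combinations.

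Individual libraries at both ends of the Aldh1a3 range show the relation. KO 4, KO 9 and KO 1, with Aldh1a3 at 5.23, 5.10 and 4.80, had Gcg at 10.78, 10.66 and 10.98 and Sst at 9.43, 9.65 and 10.08. WT 7, with the most Aldh1a3 among WT at 5.03, had Gcg at 11.98 and Sst at 9.82. At the other end WT 8, KO 7 and WT 2, with Aldh1a3 at 0.14, 0.75 and 1.09, had Gcg at 13.13, 12.98 and 12.87 and Sst at 11.01, 11.71 and 11.62. KO 6, with Aldh1a3 at 3.82 and Gcg at 13.06, departed from the order. So did WT 3, which had the highest Gcg of all libraries, 13.40, with Aldh1a3 at 2.55.

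The relation was present within each genotype. The scores used here hold the hormone genes above, Gcg for alpha cells and Sst, Ppy and Pyy for delta and PP cells. They are therefore not separate from the single hormones. The mean log2 value of the 8 listed alpha-cell genes had r = -0.78 and rho = -0.83 with Aldh1a3 (permutation p = 0.00013 and 5e-05, adjusted p = 0.0011 and 0.00068), with r = -0.80 within the knockout and -0.76 within WT. The mean of the 5 delta and PP cell genes had r = -0.81 and rho = -0.85 (permutation p = 8e-05 and 2e-05, adjusted p = 0.0011 and 0.00068), with r = -0.83 within the knockout and -0.84 within WT. Of all other genes, 3 had a lower r with the alpha-cell score and 1 with the delta and PP cell score. Without the 2 libraries farthest from the median of the score, r was -0.80 for alpha cells (without KO 4 and WT 3) and -0.81 for delta and PP cells (without KO 4 and KO 3). For Gcg, Sst and Pyy, without KO 4 and KO 9, it was -0.71, -0.71 and -0.75, and for Ppy, without KO 4 and KO 5, it was -0.57. CPM taken over reads outside Ins1 and Ins2 gave -0.78 and -0.80 for the 2 scores, and values without KO 2, KO 3 and WT 7 gave -0.78 and -0.81. Centred within runs of animal numbers, over 14 libraries, r was -0.73 and -0.79 (adjusted p = 0.0411 and 0.0275). In the same centring Gcg no longer passed, at r = -0.65 (adjusted p = 0.118), nor did Ppy, at -0.55 (adjusted p = 0.289).

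**Figure D4:**
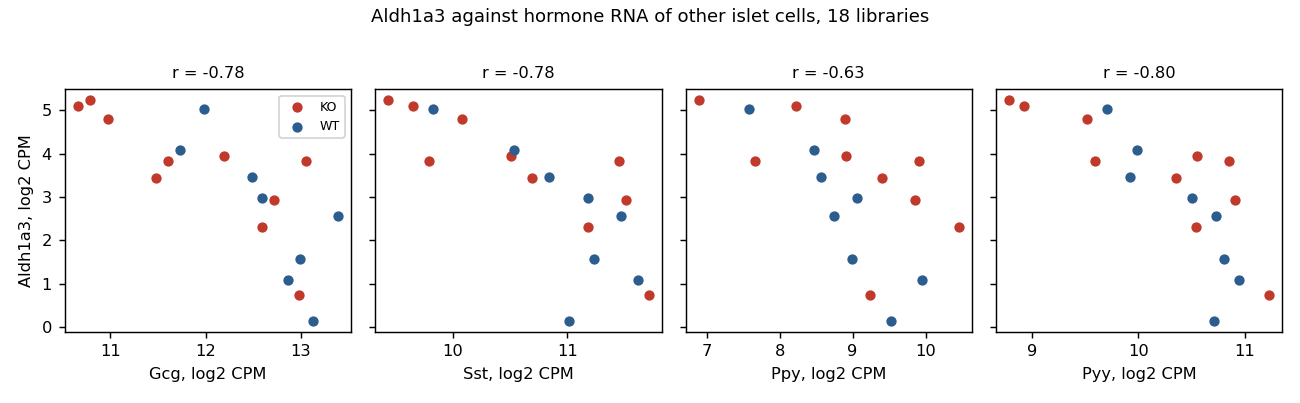
Aldh1a3 against the hormone genes Gcg, Sst, Ppy and Pyy (all log2 CPM) in 10 KO (red) and 8 WT (blue) libraries. Aldh1a3 is lower where hormone RNA is higher, with r of -0.78, -0.78, -0.63 and -0.80, and both genotypes lie along the same band.

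Alpha-cell RNA also differed in mean between the genotypes, below the threshold. Of the 8 listed alpha-cell genes 7 were lower in the knockout, with a median log2 fold change of -0.54, and 0 passed. The alpha-cell score averaged 4.77 ± 0.59 (SD, n = 10) for knockout and 5.24 ± 0.39 (SD, n = 8) for WT libraries. With the alpha-cell score as a covariate, added after the data had been seen, the limma log2 fold change of Aldh1a3 was -0.05 (95% interval -0.97 to 0.87, adjusted p = 0.989), and with the delta and PP cell score it was 0.59 (-0.18 to 1.37, adjusted p = 0.825). The part of these cells in the genotype difference of Aldh1a3 was not tested beyond these fits. The same alpha-cell covariate left Hes1 at 0.59 and Vim at 0.22 and moved Sox9 from 0.38 to 0.91 (95% interval -0.045 to 1.86, adjusted p = 0.720). Hes1 and Vim had r of -0.21 and -0.09 with the alpha-cell score and 0.14 and -0.11 with the delta and PP cell score, which did not pass (adjusted p = 0.694 to 0.798). Sox9 had positive values of 0.39 and 0.51, of which the larger was 0.14 without KO 4 and KO 3 (permutation p = 0.108 and 0.0306, adjusted p = 0.305 and 0.130), and rho of 0.29 and 0.44 (permutation p = 0.235 and 0.0733). Without KO 4 alone they were 0.12 and 0.31. Within the knockout they were 0.68 and 0.70 and within WT -0.15 and -0.05, a difference that was not tested. Without KO 1 the larger was 0.65 (permutation p = 0.00395, adjusted p = 0.0217).

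No planned relation to beta-cell, ductal or stromal RNA passed. These were 22 relations, each member with a beta-cell score (the mean log2 value of 23 listed beta-cell identity genes), with Krt19, a keratin of duct cells, with Spp1, the secreted duct protein osteopontin, and with Col1a2, a collagen chain of fibroblasts, and the members with each other. At an unadjusted permutation p under 0.05 there were 2 by Pearson and 1 by Spearman correlation, and none of the 22 passed after adjustment.

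Vim and Col1a2 had the highest of these values, r = 0.54 and rho = 0.47 (permutation p = 0.0212 and 0.0488, adjusted p = 0.466 and 0.672). The relation depended most on KO 2. KO 2 and KO 3 had the most Col1a2, 4.83 and 4.46, and Vim at 6.21 and 5.28. Without these 2 libraries r was 0.21, without KO 2 alone it was 0.34, and without KO 3 alone it was 0.50. Without KO 2, KO 3 and WT 7 it was 0.20. Within the knockout r was 0.55, within WT 0.36, and centred within genotype 0.51. Col1a2 itself averaged 3.57 ± 0.89 (SD, n = 10) for knockout and 2.95 ± 0.55 (SD, n = 8) for WT libraries, a log2 fold change of 0.63 that did not pass (limma adjusted p = 0.945). It was 0.41 with KO 2, KO 3 and WT 7 left out. Over the 12 libraries of runs with both genotypes it was 1.14 (limma unadjusted p = 0.00414, adjusted p = 0.810), and with the run as a term 1.18 (unadjusted p = 0.00218, adjusted p = 0.478). With Col1a2 as a covariate the log2 fold change of Vim was -0.02 (adjusted p = 0.990), and those of Hes1, Aldh1a3 and Sox9 were 0.55, 0.82 and 0.35. Across the 15 listed stromal and matrix genes, Vim had a positive r with 14, with a median of 0.33, against a positive r with 47.3% of all genes. The part of stromal RNA in the Vim values was not tested beyond these values.

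Sox9 and the beta-cell score had the lowest value, r = -0.48 and rho = -0.33 (permutation p = 0.0431 and 0.174, adjusted p = 0.474 and 0.672). KO 7 and KO 8, with the lowest beta-cell scores of 8.42 and 8.55, had Sox9 at 3.07 and 2.45. The score holds Ins1, the gene that the Ins1Cre driver is named for. Both libraries also had the lowest Ins1 of all, 14.43 and 14.35. Sox9 had r = -0.22 with Ins1 alone, and the part of Ins1 in the low scores was not tested. Without KO 7 and WT 3, the 2 libraries farthest from the median score, r was -0.33, and centred within runs of animal numbers it was -0.15. The score spanned only 8.42 to 8.78, and 15 of its 23 genes had a negative r with Sox9, with a median of -0.13. Over all genes 50.0% had a positive r with Sox9. Hes1 had r = -0.31 with the score, and Vim and Aldh1a3 had -0.11 and 0.10. With KO 2, KO 3 and WT 7 left out, these were -0.63 (permutation p = 0.0109, adjusted p = 0.241), -0.45 and 0.11, and that of Sox9 was -0.53. Without KO 7, which had the lowest score and the least Aldh1a3 of the knockout, Aldh1a3 had r = -0.24, Hes1 -0.14 and Vim 0.12. For Aldh1a3 the value within the knockout, 0.65, and the value within WT, -0.46, had opposite signs, a difference that was not tested.

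No relation to the ductal genes passed. Krt19 and Sox9, both genes of duct cells, had r = 0.06, with -0.03 within the knockout and 0.51 within WT. Krt19 had 0 to 59 reads per library, and KO 7 and KO 8, with 1 and 0 Krt19 reads, had 28 and 16 Sox9 reads. Conversely KO 5, with the most Krt19 at 3.90, had Sox9 at 1.58. Spp1 and Sox9 had r = 0.11. Spp1 had r = 0.36 with Hes1, which was 0.66 without KO 2, and -0.42 with Vim, which was 0.08 without KO 2, KO 3 and WT 7. Krt19 and Aldh1a3 had r = 0.40 (adjusted p = 0.557), which was 0.58 without KO 8 and KO 5. It stayed above 0 in all 24 alternatives, which share most of their libraries. The other ductal markers mostly went the other way. Of the 15 listed, Aldh1a3 had a positive r with 4 and a negative r with 11, with a median of -0.17. Over all genes 46.4% had a positive r with Aldh1a3, with a median of -0.02. Spp1 and Aldh1a3 had r = -0.18 and rho = -0.34 (adjusted p = 0.804 and 0.672), which depended on the libraries used. It was -0.52 without WT 8, 0.07 with KO 2, KO 3 and WT 7 left out, and -0.72 centred within runs of animal numbers (permutation p = 0.00323, adjusted p = 0.0711). Of 15 listed ductal markers 7 were higher and 8 lower in the knockout, with a median log2 fold change of -0.10, and 0 passed. Krt19 was at 1.74 ± 1.45 (SD, n = 10) and 1.58 ± 1.05 (SD, n = 8), and Spp1 at 6.15 ± 0.89 (SD, n = 10) and 5.85 ± 0.84 (SD, n = 8).

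The 4 members did not move together. Among the 6 pairs r ran from -0.23 for Aldh1a3 with Sox9 to 0.28 for Hes1 with Sox9 (adjusted p = 0.734 and 0.720). Hes1 and Vim had r = 0.09 over all libraries and -0.55 without KO 2 and KO 7, the 2 libraries farthest from the median of Vim. KO 2 was the library with the most Hes1 and the most Vim and had Sox9 at 2.64 and Aldh1a3 at 3.93, above the WT mean of each.

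**Figure D5:**
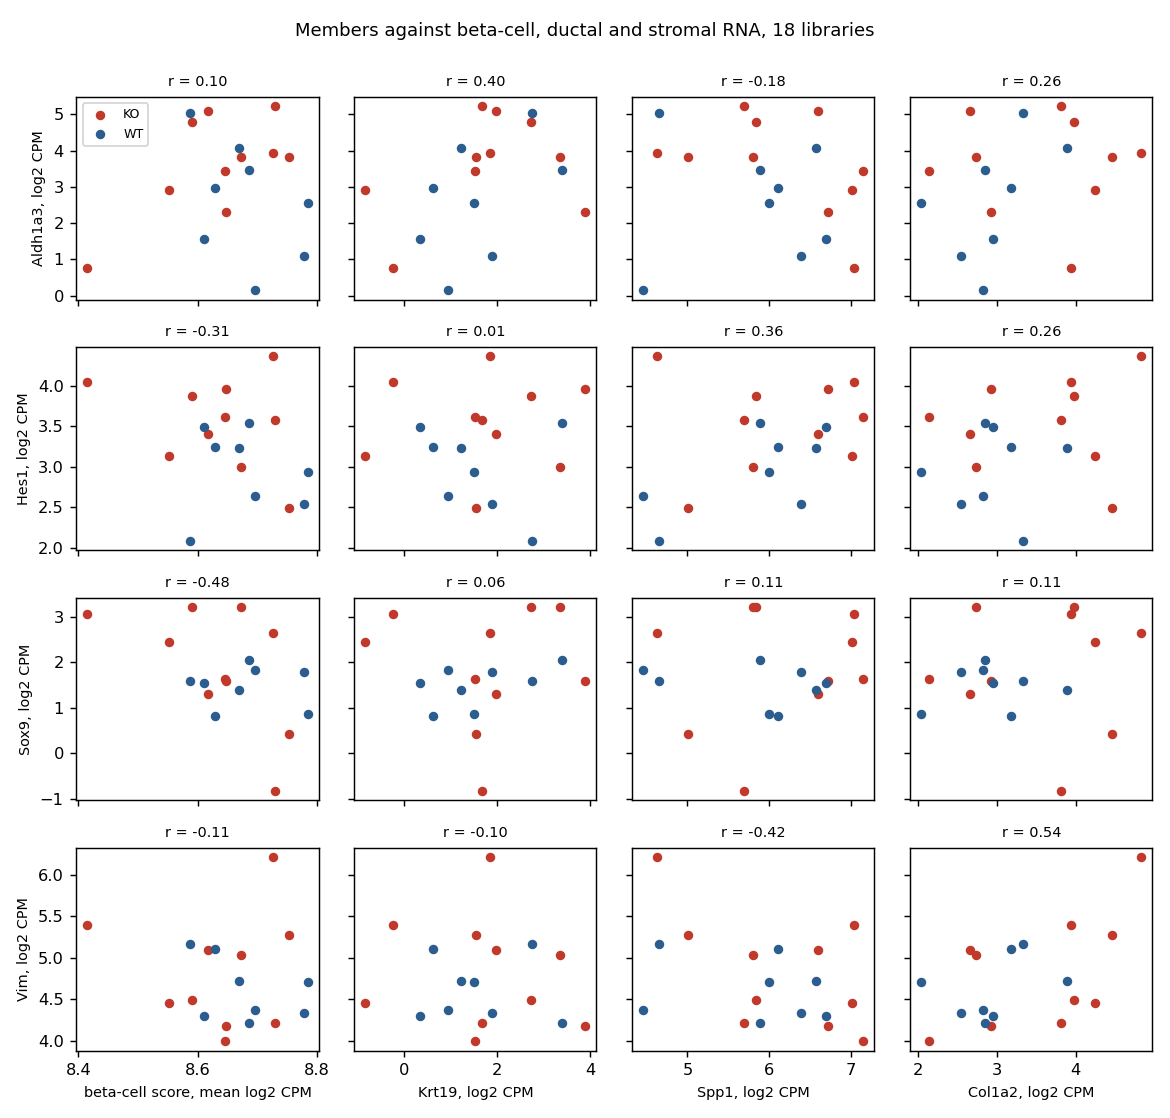
Each member (rows, log2 CPM) against the beta-cell score, Krt19, Spp1 and Col1a2 (columns, log2 CPM) in 18 libraries, KO in red and WT in blue, with Pearson r above each panel. The highest r, 0.54 for Vim with Col1a2, has KO 2 at its upper right corner, and the lowest is -0.48 for Sox9 with the beta-cell score.

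The genes whose values were most like each member were found by Pearson r across 18 libraries among 7415 genes with a mean log2 CPM of at least 3. They were picked as the highest of 7415 values, so a high r follows from the choice itself, and none was tested. For Aldh1a3 these were Lipa, the lysosomal acid lipase, at r = 0.74 (rho = 0.82), Hsbp1l1 at 0.74, Rasgrf2, a guanine nucleotide exchange factor, at 0.71 and Lin7a at 0.71. Their log2 fold changes ran from 0.0001 for Rasgrf2 to 0.97 for Lin7a (limma adjusted p = 1.000 and 0.925), against 1.00 for Aldh1a3. For Hes1 they were Atg2b, an autophagy gene, at 0.84, Ccdc30 at 0.81, the synaptic vesicle gene Syn1 at 0.81 and the G protein subunit gene Gnaq at 0.76. Their log2 fold changes were 0.48, 0.70, 0.45 and 0.41, none of which passed, and without KO 2, KO 3 and WT 7 their r was 0.67, 0.65, 0.64 and 0.45. For Sox9 they were the interferon-induced gene Rsad2 at 0.75, Hif1a at 0.67, the endothelial receptor gene Tie1 at 0.67 and Nr4a2 at 0.66. Their rho with Sox9 was 0.61, 0.54, 0.52 and 0.78. For Vim they included Brd3 at 0.85, Arhgef28 at 0.80 and Ncapd3 at 0.79, which were 0.66, 0.70 and 0.50 without KO 2, KO 3 and WT 7.

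Other genes tied to dedifferentiation and progenitors did not differ detectably. Of 23 in the list 11 were listed in the file, 6 of them higher and 5 lower in the knockout, with a median log2 fold change of 0.12, and 0 passed in either direction. The smallest limma p was that of Ldha, lactate dehydrogenase A, which mature beta cells keep low. Its log2 fold change was 0.69 (SE 0.36, limma adjusted p = 0.945). The progenitor factor Sox4 followed, at 0.36. Hk1, a hexokinase of high glucose affinity, was at -0.60. Neurog3, the endocrine progenitor factor that Hes1 represses, was named here after its value had been seen. It averaged 3.47 ± 1.07 (SD, n = 10) for knockout and 3.35 ± 0.85 (SD, n = 8) for WT libraries, a log2 fold change of 0.12 (95% interval -0.68 to 0.92).

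Around Aldh1a3, 11 of 23 retinoid pathway genes were listed, 4 higher and 7 lower in the knockout, with 0 passing. Dhrs3, an enzyme that turns retinaldehyde back into retinol, was at 0.79 (limma adjusted p = 0.925), the retinoid receptor gene Rxrb at -0.30 and Cyp26b1, which degrades retinoic acid, at 0.52. Aldh1a3 had a positive r with 9 of these 11 genes, with a median of 0.10. Over all genes 46.4% had a positive r with it, with a median of -0.02.

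Around Hes1, 34 of 41 Notch pathway genes were listed, 23 higher and 11 lower in the knockout, with a median log2 fold change of 0.13 and 0 passing. Maml1, a co-activator of Notch, was at 1.08 (SE 0.31, limma adjusted p = 0.797) from 3 to 26 reads per library, Fbxw7, part of the ubiquitin ligase that removes active Notch, at 0.63, and Notch4, a receptor of endothelial cells, at 0.64. Hes1 had a positive r with 22 of the 34, with a median of 0.16, and with 15 of 18 immediate early genes, with a median of 0.15, against 51.5% of all genes. Of these 18 genes 15 had a higher knockout mean, with a median log2 fold change of 0.28 and 0 passing, among them Ier2 at 0.89, Jun at 0.59 and Dusp1 at 0.69.

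Around Vim, other filament genes stood on both sides of 0, near the shares over all genes. Of 10 listed intermediate filament genes 4 were higher and 6 lower in the knockout, against 49.6% of all genes higher. Lmnb1 was at -0.28, Plec at 0.15 and Krt8 at -0.14. A positive r with Vim was found for 4 of 10, against 47.3% of all genes. Of 12 genes of the epithelial to mesenchymal transition 6 were higher and 6 lower, with the TGF-beta genes Tgfbr1 and Tgfb1 at 0.38 and 0.59 and N-cadherin, Cdh2, at 0.25. Of 15 stromal and matrix genes 11 were higher and 4 lower, with fibronectin, Fn1, at 0.86 and fibrillin, Fbn1, at 1.01, from 2 to 30 and 0 to 34 reads. Their summed level was 285 to 1118 CPM in the knockout and 322 to 535 CPM in WT, highest in KO 2 by score. None of these genes passed.

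Markers of other cells that can hold these RNAs were as follows. The 13 endothelial markers summed to 446 to 750 CPM in the knockout and 451 to 628 CPM in WT. Among them 6 were higher and 7 lower in the knockout, with a median log2 fold change of -0.02. Those of smallest limma p were Flt1 at a log2 fold change of 0.49, Cdh5 at 0.40 and Egfl7 at -0.23. The 10 listed myeloid markers summed to 76.9 to 344 CPM in the knockout and 125 to 274 CPM in WT. Aldh1a3 had a positive r with 9 of them, with a median of 0.34, against 46.4% of all genes. The 13 acinar markers ran from 51.4 to 2127 CPM in the knockout and 69.4 to 2006 CPM in WT, and Vim had a negative r with all 13, with a median of -0.37. No marker in these lists passed or was at 0 reads in all libraries, and their part in the values of the 4 members was not tested.

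Beta-cell identity genes stood on both sides of 0 beside the 4 members. Of 23 listed, 10 were higher and 13 lower in the knockout, with a median log2 fold change of -0.04 and 0 passing. Ins1 was at -0.68 (limma adjusted p = 0.926). The Ins1Cre driver bears the name of this gene, and no label used here gives the Cre status of WT mice. Any part of the driver in the Ins1 value was not tested. The gap junction gene Gjd2 was at -0.30, the granule zinc transporter Slc30a8 at -0.24, the glucose transporter Slc2a2 at -0.26 and the maturity marker Ucn3 at -0.28. The transcription factor genes Pdx1, Nkx6-1 and Foxo1 were at -0.01, 0.17 and -0.05, and Ins2 was at 0.28.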

How the data were processed

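Islet RNA of 18 mice was read with a 3' end kit (QuantSeq FWD), per the labels' protocols. The authors deposited 1 table of log2 values for 10509 genes. STAR 2.5.2, HTSeq 0.6.1, edgeR and GRCm38 are named, without a role, in the submitters' processing notes. No source used here gives the annotation, gene filter or prior count. All libraries share a floor of 0.562 CPM. Above it the deposited values were whole multiples of 0.238 to 0.411 CPM in each library, within 0.05 reads for 100% of values, so read numbers were recovered.

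Libraries were grouped by the genotype label and numbered within a group. The main test was limma 3.58.1 in R 4.3.3 (variance trend, no covariate, two-sided, Benjamini-Hochberg over all genes). Requiring a log2 value over 0 in 8 or more libraries removed 0 genes. Because the file holds log2 values, limma voom on recovered reads was the count alternative. Single genes were also tested by exact permutation over samples (scipy 1.17.1 definition, two-sided), and correlations with 100000 resamples. Runs are consecutive animal numbers in the titles and are not a stated batch. The limma fit and the exact permutation code were first tested on simulated data. Coordinates come from RefSeq (GRCm38.p6), where 10508 identifiers were found.

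The members and lists were chosen with earlier results of these data known. The rule for named genes took the members, fixed partners and beta-cell genes (of which Mafa was not analysed here), 3 genes of smallest p per list and 4 most alike genes per member, of which 1 is not reported here. Of the delta and PP cell and other marker lists, the text names those a result turns on.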

Additional observations from a re-analysis of the deposited data

How the results depend on the processing

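No paired analysis was possible because the labels give no replicate numbers that pair mice. Limma called 0 genes under each alternative except with Col1a2 as a covariate, where it called 1, which is none of the members. The cause was not tested. None of the 4 members passed over all genes under any alternative, and the log2 fold changes of Hes1 and Sox9 stayed above 0 in all of them. That of Aldh1a3 was -0.05 (-0.0458) with the alpha-cell score as a covariate, that of Vim was -0.02 (-0.0195) with Col1a2 as a covariate, and that of Spp1 was -0.23 over the 12 libraries of runs with both genotypes and -0.45 with the run as a term. Leaving out each library in turn gave 0.65 to 1.35 for Aldh1a3, 0.46 to 0.70 for Hes1 (exact permutation p = 0.00889 to 0.0830), 0.23 to 0.68 for Sox9, 0.07 to 0.31 for Vim and -0.0803 to 0.45 for Krt19. The exact test of Hes1 also missed 0.05 over the 12 libraries, at 0.361 without the run as a term and 0.362 with it (exact permutation p = 0.311 and 0.431).

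None of the 22 planned relations passed under any alternative. Some planned and added relations changed sign, Vim with Spp1 (-0.42 over all libraries) among them. Centred within genotype, r was -0.0246 for Hes1 with Krt19, -0.14 for Aldh1a3 with Hes1, -0.01 (-0.00942) for Hes1 with Vim and 0.0153 for Hes1 with the alpha-cell score. Centred within runs, it was -0.11 for Hes1 with Krt19, -0.0480 for Sox9 with Spp1, -0.12 for Sox9 with Col1a2, 0.0850 for Vim with Krt19 and -0.0639 for Aldh1a3 with Hes1. Median centring gave 0.0930 for Vim with the beta-cell score. Without KO 2, KO 3 and WT 7 it was 0.0714 for Aldh1a3 with Spp1, 0.0821 for Vim with Spp1, -0.23 for Hes1 with the delta and PP cell score, and 0.25 and 0.0883 for Vim with the alpha-cell and the delta and PP cell scores. Leaving out each library in turn, r ran from -0.10 to 0.24 for Aldh1a3 with Hes1, -0.24 to 0.24 for Aldh1a3 with the beta-cell score, -0.13 to 0.15 for Hes1 with Krt19, -0.29 to 0.22 for Hes1 with Vim, -0.0153 to 0.28 for Hes1 with the delta and PP cell score, -0.0668 to 0.22 for Sox9 with Krt19, -0.19 to 0.00976 for Vim with Krt19, -0.32 to 0.12 for Vim with the beta-cell score and -0.24 to 0.0413 for Vim with the alpha-cell score.

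Of the added relations of Aldh1a3, those with both scores, Sst and Pyy passed in 24 of 24 alternatives. They overlap, since the scores hold the hormone genes, and they were chosen from the same libraries. That with Gcg was lost only when centred within runs (-0.65), and that with Ppy there (-0.55), in the absence of KO 2, KO 3 and WT 7 together (-0.58), and when KO 4, WT 2 or WT 7 alone was left out, with a range of -0.69 to -0.56 over all fits without 1 library. Requiring log2 values above 3 left Sox9 and Krt19 untested. Sox9 rests on 0 to 33 reads and Krt19 on 0 to 59, so differences in single libraries are within wide counting intervals.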
